A study of Mus musculus with 4 samples.

Results

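The levels of 10 cell cycle genes, 8 cyclins and 2 inhibitors of cyclin-dependent kinases (CDKs), were examined in CD24+ emergency progenitors (EPs) of the mouse spleen. The 10 genes were *Ccnd1*, *Ccnd2*, *Ccnd3*, *Ccne1*, *Ccne2*, *Ccna2*, *Ccnb1*, *Ccnb2*, *Cdkn1b* and *Cdkn2c*, taken by gene symbol from the 40213 symbols counted. For each gene the counts of its transcripts were summed, and all 10 had enough counts to be among the 12393 genes tested. EPs are CD11c+CD117+ cells that expand when the cytokine Flt3L is supplied and that give rise to conventional dendritic cells (cDCs). All mice received 10 µg of Flt3L-Ig, a fusion of Flt3L with an immunoglobulin tail, by intraperitoneal injection on days 0 and 3, and the spleens were taken on day 9 to sort CD24+ EPs for bulk RNA-seq. Replicates 1 and 2 of the WT group came from mice labelled WT, and in the study that name stands for TopBP1 fl/fl littermates. Replicates 1 and 2 of the other group are labelled cKO, that is TopBP1 fl/fl mice that carry CD11c-cre, so that both groups have the floxed allele and only the second has Cre, in cells that express CD11c. Mice were 7 to 10 weeks of age in the study. Neither the number of mice behind a library nor whether mice were pooled is given in the sources used here, so a p-value measures the spread between these libraries, which may be technical.

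Cyclins are proteins whose levels rise and fall through the cell division cycle and which switch on their partner CDKs. D-type cyclins with Cdk4 or Cdk6 respond to growth signals in G1, E-type cyclins with Cdk2 act at the entry into S phase, cyclin A2 acts in S and G2 phase, and B-type cyclins with Cdk1 drive mitosis. The inhibitor encoded by *Cdkn1b* (p27) binds cyclin and CDK complexes of several kinds, whereas that encoded by *Cdkn2c* (p18) binds Cdk4 and Cdk6. TopBP1 is a scaffold protein of DNA replication and of the checkpoint response to damaged DNA.

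The libraries held 14561583 and 15193831 counts in WT replicates 1 and 2, and 15148032 and 15093476 counts in cKO replicates 1 and 2. The target of the deletion, *Topbp1*, was counted 1102 and 1143 times in WT, 773 times in cKO replicate 1 and 1279 times in cKO replicate 2. The library labelled cKO replicate 2 thus had the highest *Topbp1* count of the 4, against its label. The log2 fold change of *Topbp1* was −0.20 (SE 0.21, edgeR quasi-likelihood test, FDR 0.774), −0.61 without cKO replicate 2 and 0.11 without cKO replicate 1. Which exons are floxed is not given in the sources used here, so counts from outside them could hide a deletion. In what follows "the cKO libraries" means those labelled so. The same library also stood apart in its cell cycle genes. *Mki67*, the gene of the proliferation antigen Ki-67, had 3063 and 3052 counts in WT, 3861 in cKO replicate 1 and 12144 in cKO replicate 2. The fold change of each of the 10 genes, and the count and median of each pathway list, are therefore also given without it. In bulk RNA a larger share of dividing cells and more RNA of a gene in each cell cannot be told apart. The paper describes TopBP1 as induced at the transition from G1 to S phase. Whether the *Topbp1* count of cKO replicate 2 followed its proliferation genes was not tested.

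All 8 cyclins were higher in both cKO libraries than in both WT libraries, and all 8 were highest in cKO replicate 2. Of all genes tested, 22.8% had both cKO libraries above both WT libraries and 34.8% were highest in cKO replicate 2. With all 4 libraries the E-type cyclins differed most, at about 3-fold between group means, and *Ccnd3* least. Without cKO replicate 2 *Ccnd1* differed least of the cyclins, at a log2 fold change of 0.14. *Cdkn1b* was lower in both cKO libraries, and *Cdkn2c* was higher in cKO replicate 2 only. With 2 libraries in each group, none of the 10 genes passed an FDR of 0.05 in the edgeR quasi-likelihood test with Benjamini-Hochberg adjustment over 12393 genes, in which 13 genes (0.105%) did. The plot of levels by library shows this pattern gene by gene.

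**Figure D1:**
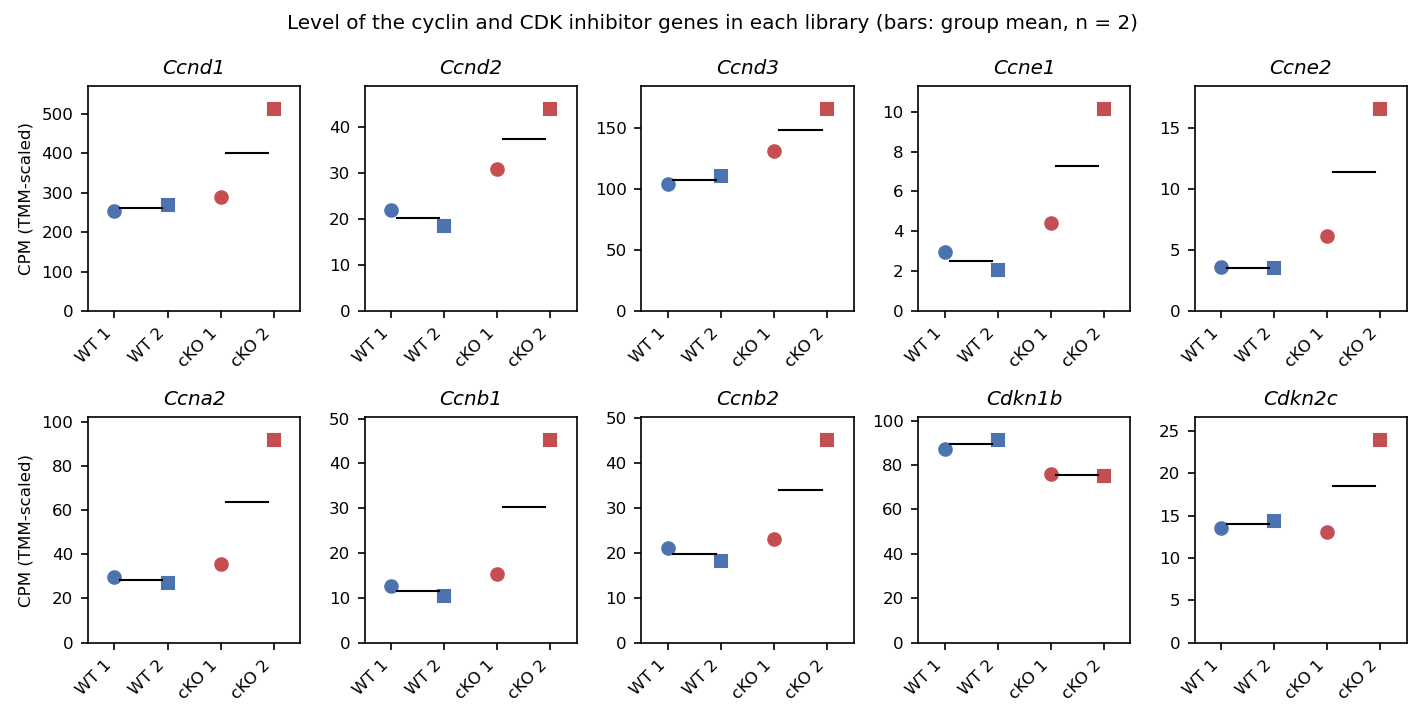
Level of each of the 10 genes in each library, in CPM scaled by TMM (vertical axes from 0), with WT in blue, the cKO libraries in red, circles for replicate 1, squares for replicate 2 and a bar at each group mean (n = 2). In the 8 cyclin panels both red points lie above both blue points and the red square is highest, whereas both red points of *Cdkn1b* lie below the blue ones.

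Among the D-type cyclins, *Ccnd1* (cyclin D1) was the most abundant per kilobase of transcript. It had 3586 and 4074 counts in WT, 4416 in cKO replicate 1 and 7935 in cKO replicate 2. Levels in CPM, a gene's counts per 1000000 counts of its library after TMM scaling, were 261 ± 11.4 in WT and 402 ± 158 in the cKO libraries (SD, n = 2 in each group here and below). The first cKO library lay just above WT, and most of the difference lay in the second. The log2 fold change was 0.62 (SE 0.24, unadjusted p = 0.0341 and FDR 0.430 in the edgeR quasi-likelihood test), 0.14 without cKO replicate 2 and 0.97 without cKO replicate 1.

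*Ccnd2* (cyclin D2) had 310 and 278 counts in WT, 470 in cKO replicate 1 and 679 in cKO replicate 2. These are 20.1 ± 2.48 CPM in WT and 37.4 ± 9.24 CPM in the cKO libraries, so each cKO library lay clear of the WT pair. This gave a log2 fold change of 0.89 (SE 0.20, unadjusted p = 0.0026 and FDR 0.307 in the edgeR quasi-likelihood test), 0.61 without cKO replicate 2 and 1.12 without cKO replicate 1. *Ccnd2* had the smallest p of the 10 genes, and it was the only 1 of them that passed an FDR of 0.05 without cKO replicate 2, when 1.74% of 12804 genes did.

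*Ccnd3* (cyclin D3) had 1478 and 1677 counts in WT, 2001 in cKO replicate 1 and 2565 in cKO replicate 2. It stood at 108 ± 4.61 CPM in WT and 149 ± 24.4 CPM in the cKO libraries. A log2 fold change of 0.46 was fitted (SE 0.14, unadjusted p = 0.0120 and FDR 0.347 in the edgeR quasi-likelihood test), 0.28 without cKO replicate 2 and 0.62 without cKO replicate 1. The groups did not overlap, but the step from WT to cKO replicate 1 was smaller than that between the cKO libraries.

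The make-up of the D-type cyclins was then described by the share of each gene, and for *Ccnd1* and *Ccnd3* the cKO libraries lay on either side of WT. Per kilobase, *Ccnd1* gave 56.2% and 56.5% of the summed D-type level in WT and 53.6% and 61.6% in cKO replicates 1 and 2. *Ccnd3* gave 41.0% and 41.2% in WT and 43.0% and 35.3% in the cKO libraries. *Ccnd2* gave 2.87% and 2.28% in WT and 3.37% and 3.12% in the cKO libraries, higher in both. The most counted transcript of *Ccnd2* had no known length here, and the longest listed one was used in its place, so its share may be understated. No test was made of these shares.

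The E-type cyclins had the lowest counts and the largest fold changes of the 10 genes. *Ccne1* (cyclin E1) had 42 and 31 counts in WT, 67 in cKO replicate 1 and 157 in cKO replicate 2. Its level was 2.51 ± 0.648 CPM in WT and 7.28 ± 4.07 CPM in the cKO libraries. This gave a log2 fold change of 1.54 (SE 0.44, unadjusted p = 0.0089 and FDR 0.337 in the edgeR quasi-likelihood test), 0.80 without cKO replicate 2 and 2.02 without cKO replicate 1.

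*Ccne2* (cyclin E2) had 51 and 53 counts in WT, 94 in cKO replicate 1 and 256 in cKO replicate 2. The WT pair was tight, at 3.56 ± 0.0688 CPM, against 11.4 ± 7.34 CPM in the cKO libraries. A log2 fold change of 1.67 was fitted (SE 0.45, unadjusted p = 0.0060 and FDR 0.308 in the edgeR quasi-likelihood test), 0.79 without cKO replicate 2 and 2.22 without cKO replicate 1. The 2 E-type genes thus stood at 1.75 and 1.74 times the WT mean in cKO replicate 1 and at 4.05 and 4.66 times in cKO replicate 2.

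*Ccna2* (cyclin A2) had 418 and 408 counts in WT, 545 in cKO replicate 1 and 1417 in cKO replicate 2. It stood at 28.3 ± 1.80 CPM in WT and 63.7 ± 39.5 CPM in the cKO libraries. This gave a log2 fold change of 1.17 (SE 0.37, unadjusted p = 0.0145 and FDR 0.351 in the edgeR quasi-likelihood test), 0.33 without cKO replicate 2 and 1.70 without cKO replicate 1. Most of the difference thus lay in 1 library, as it did for the B-type cyclins.

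*Ccnb1* (cyclin B1) had 179 and 158 counts in WT, 235 in cKO replicate 1 and 699 in cKO replicate 2. Its level was 11.6 ± 1.55 CPM in WT and 30.3 ± 21.1 CPM in the cKO libraries. A log2 fold change of 1.39 was fitted (SE 0.44, unadjusted p = 0.0138 and FDR 0.351 in the edgeR quasi-likelihood test), 0.41 without cKO replicate 2 and 1.97 without cKO replicate 1. *Ccnb1* shares sequence with a pseudogene, *Ccnb1-ps*. Of the 31-base words in its transcripts, 27.7% occur in another gene and 22.9% in *Ccnb1-ps*, which had 9, 2, 7 and 33 counts in WT replicates 1 and 2 and cKO replicates 1 and 2. Part of the counts may thus have been placed on the wrong copy, and the value of *Ccnb1* is uncertain to that extent.

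*Ccnb2* (cyclin B2) had 299 and 275 counts in WT, 350 in cKO replicate 1 and 696 in cKO replicate 2. It stood at 19.7 ± 2.07 CPM in WT and 34.0 ± 15.6 CPM in the cKO libraries. A log2 fold change of 0.79 was fitted (SE 0.29, unadjusted p = 0.0283 and FDR 0.401 in the edgeR quasi-likelihood test), 0.22 without cKO replicate 2 and 1.19 without cKO replicate 1. Among the A- and B-type cyclins it differed least.

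The promoters of the B-type cyclins are shown because these genes were high in the same library and because such genes are known for 2 short elements, the CCAAT box and the cell cycle genes homology region (CHR), which lie near their start sites. RefSeq promoter windows of GRCm38.p6, 250 bases before to 50 after a gene's start, were on hand for 6 of the 10 genes (*Ccnd3*, *Ccne1*, *Ccnb1*, *Ccnb2*, *Cdkn1b* and *Cdkn2c*). The stretches below run 5′ to 3′ on the strand of the gene, the minus strand in both, from 110 bases before the start through the first 15 bases of the transcript. They cover chr13:100786472-100786596 for *Ccnb1* and chr9:70421540-70421664 for *Ccnb2*, and the capitals mark CCAAT in both genes, the word TTTAAA in the *Ccnb1* stretch only and the CHR word TTTGAA in the *Ccnb2* stretch only.
Ccnb1: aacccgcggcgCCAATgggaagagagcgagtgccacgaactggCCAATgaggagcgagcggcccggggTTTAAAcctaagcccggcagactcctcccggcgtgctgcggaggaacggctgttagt
Ccnb2: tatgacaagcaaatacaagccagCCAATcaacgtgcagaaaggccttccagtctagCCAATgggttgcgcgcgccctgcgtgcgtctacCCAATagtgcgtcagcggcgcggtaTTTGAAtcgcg

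The windows were searched on both strands. CCAAT occurred at 2 places in the *Ccnb1* window and at 3 in the *Ccnb2* window, and 37.4% of all 32851 windows of this length held it. The CHR words TTTGAA and TTCGAA were held by 19.2% of windows, and among the 6 genes only by *Ccnb2*, with TTTGAA at 2 places. Only these spellings were searched as CHR words, so a window without them may still hold a CHR of another spelling. CCAAT together with a CHR word was found in 7.52% of windows. *Cdkn1b* held CCAAT at 3 places, and 1 window each of *Ccnd3* and *Cdkn2c* held it at 1 place, whereas *Ccne1* held none. The E2F words TTTCCCGC, TTTCGCGC, TTTGCCGC and TTTGGCGC were in none of the 8 windows of the 6 genes and in 2.26% of all windows. TTTAAA, which reads the same on both strands and was added after the windows had been read, was in the windows of *Ccnb1*, *Ccne1* and *Cdkn1b* and in 13.2% of all windows. None of these matches overlapped a match to another word. They describe letters in these windows only.

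Neither of the CDK inhibitors passed the test, even without adjustment. *Cdkn1b* had 1235 and 1379 counts in WT, 1158 in cKO replicate 1 and 1162 in cKO replicate 2. Its level was 89.2 ± 2.81 CPM in WT and 75.6 ± 0.611 CPM in the cKO libraries. The cKO libraries were close to each other and below both WT libraries, but the log2 fold change of −0.24 did not pass the test (SE 0.12, unadjusted p = 0.0747 and FDR 0.515 in the edgeR quasi-likelihood test). Leaving out each of the 4 libraries in turn gave values from −0.27 to −0.22.

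*Cdkn2c* had 191 and 218 counts in WT, 200 in cKO replicate 1 and 370 in cKO replicate 2. The level was 14.0 ± 0.655 CPM in WT and 18.5 ± 7.64 CPM in the cKO libraries, and the groups overlapped. The log2 fold change was 0.41 (SE 0.28, unadjusted p = 0.183 and FDR 0.643 in the edgeR quasi-likelihood test), 0.77 without cKO replicate 1, and it turned to −0.10 without cKO replicate 2. *Cdkn2c* was thus the only 1 of the 10 genes whose direction depended on which library was left out.

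Counted together, 8 of the 10 genes had an unadjusted p below 0.05 in the edgeR quasi-likelihood test, all 8 of them cyclins and all higher in the cKO libraries. Of all genes tested, 6.95% were higher and 3.77% lower at that threshold. Both cKO libraries lay above both WT libraries for 8 of the 10 genes, against 22.8% of all genes, and below them for 1, *Cdkn1b*, against 20.8%. The median log2 fold change of the 10 genes was 0.84 and that of all genes tested 0.01. The 10 genes were chosen with earlier results of these data known, so these comparisons with all genes are a description. An exact permutation test of a single gene with 2 libraries against 2 cannot give a two-sided p below 0.333.

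The outcome of the test depended on the library and on the tool. At an FDR of 0.05, the edgeR likelihood ratio test and the DESeq2 Wald test each called *Ccnd2* and *Ccne2*, with 1.89% and 1.11% of all genes called, and limma-voom called none of the 10 genes and 0.105% of all. Without cKO replicate 1, 9 of the 10 genes passed in the edgeR quasi-likelihood test, all but *Cdkn1b*, but so did 20.5% of all genes tested. Without cKO replicate 2, when 1.74% of all genes passed, *Ccnd2* alone did so. The number of the 10 genes that were higher at an unadjusted p below 0.05 was then 6 (*Ccnd2*, *Ccnd3*, *Ccne1*, *Ccne2*, *Ccna2* and *Ccnb1*), against 6.08% of all genes, and the median of the 10 genes was 0.30. Without WT replicate 2 it was 5 (*Ccnd2*, *Ccne1*, *Ccne2*, *Ccna2* and *Ccnb1*), against 3.36% of all genes. The 8 cyclins kept their direction without each of the 4 libraries, as the plot of fold changes shows for the cKO libraries.

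**Figure D2:**
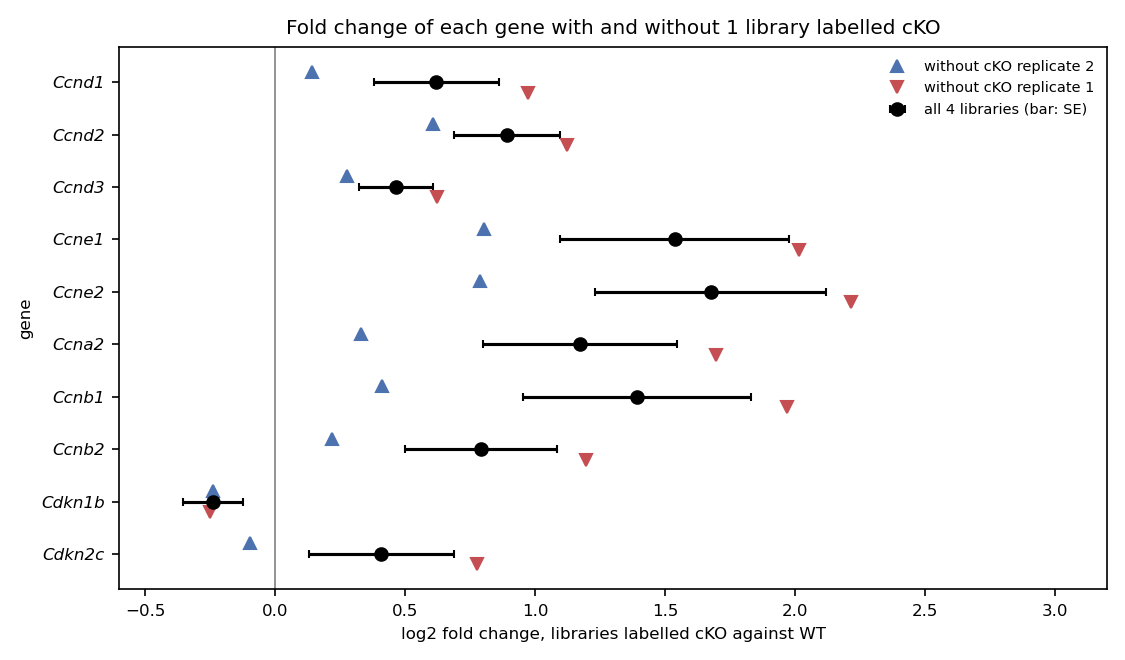
Log2 fold change of each gene, cKO libraries against WT, with all 4 libraries (black circles, bars show the SE), without cKO replicate 2 (blue triangles) and without cKO replicate 1 (red triangles). The blue triangles of the 8 cyclins lie between 0.14 and 0.80, all above 0 and all left of the black circles, whereas that of *Cdkn2c* lies at −0.10 and its red triangle at 0.77.

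The cyclins differed among themselves in how far cKO replicate 2 exceeded cKO replicate 1. The ratio of their CPM was 2.93 for *Ccnb1*, 2.68 for *Ccne2*, 2.56 for *Ccna2*, 2.31 for *Ccne1* and 1.96 for *Ccnb2*. It was 1.77 for *Ccnd1*, 1.42 for *Ccnd2* and 1.26 for *Ccnd3*, so the 3 D-type cyclins had the smallest ratios of the 8. The ratio was 1.82 for *Cdkn2c* and 0.989 for *Cdkn1b*. In all, 9 of the 10 genes were highest of the 4 libraries in cKO replicate 2, which held for 34.8% of all genes tested.

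In cKO replicate 1 the order was another one. The E-type cyclins and *Ccnd2* stood furthest above the WT mean, at 1.75 times for *Ccne1*, 1.74 for *Ccne2* and 1.53 for *Ccnd2*. *Ccnb1* followed at 1.34, *Ccna2* at 1.27, *Ccnd3* at 1.22, *Ccnb2* at 1.17 and *Ccnd1* at 1.11. *Cdkn2c* stood at 0.940 and *Cdkn1b* at 0.852 times the WT mean. These are ratios of single libraries and were not tested.

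Levels of the 10 genes were compared with each other as CPM per kilobase of the longest transcript of known length. In WT EPs *Ccnd1* led at 69.9 ± 3.05, followed by *Ccnd3* at 51.0 ± 2.18 and *Cdkn1b* at 37.3 ± 1.17 CPM per kilobase. *Ccnb2* (12.8 ± 1.35), *Ccna2* (9.53 ± 0.607), *Cdkn2c* (5.65 ± 0.265), *Ccnb1* (4.64 ± 0.624) and *Ccnd2* (3.18 ± 0.392) came next, and *Ccne1* (1.25 ± 0.324) and *Ccne2* (1.18 ± 0.0229) last. Neighbours in this order did not overlap in the WT libraries, other than *Ccne1* and *Ccne2*, but the order depends on the lengths used. Of the 191 and 218 *Cdkn2c* counts in WT, 94 and 100 belonged to its shorter transcript. With each transcript divided by its own length, a choice made after seeing the data, *Cdkn2c* stood at 8.96 ± 0.256 CPM per kilobase and overlapped *Ccna2*. The place of *Ccnd2* is uncertain because the length of its main transcript was not known here. D-type cyclins 1 and 3 and the inhibitor p27 were thus the most abundant of the 10 transcripts in these cells.

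In the cKO libraries *Ccnd1* (107 ± 42.2 CPM per kilobase), *Ccnd3* (70.3 ± 11.6) and *Cdkn1b* (31.6 ± 0.255) again led. *Ccnb2* stood at 22.2 ± 10.2, *Ccna2* at 21.5 ± 13.3, *Ccnb1* at 12.2 ± 8.46 and *Cdkn2c* at 7.498 ± 3.09 CPM per kilobase. *Ccnd2* (5.91 ± 1.46), *Ccne2* (3.78 ± 2.44) and *Ccne1* (3.64 ± 2.03) came last. Neighbours overlapped in this group, except that *Cdkn1b* stayed apart from *Ccnd3* above it and *Ccnb2* below it. By the lengths of its own transcripts *Cdkn2c* was at 8.72 and 13.5 CPM per kilobase in these libraries, which lay above *Ccnd2* in both.

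Whether the cyclins followed the general level of proliferation genes was described by dividing their counts by those of 12 proliferation markers, a scale that was added after the values had been seen. The 12 markers summed to 9305 and 9555 counts in WT, 13095 in cKO replicate 1 and 34719 in cKO replicate 2. Per 1000 of these, *Ccna2* had 44.9 and 42.7 counts in WT, 41.6 in cKO replicate 1 and 40.8 in cKO replicate 2. *Ccnb1* had 19.2 and 16.5 in WT, 17.9 and 20.1 in the cKO libraries. Such a division moves all genes of a library by the same factor, so any gene that rose less than the marker sum is lower on this scale by construction, and its values only say how far a gene rose beside the markers. On this scale cKO replicate 2 no longer stood apart from the other libraries for these genes.

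The E-type cyclins alone stayed above both WT values in both cKO libraries. *Ccne2* had 5.48 and 5.55 per 1000 in WT, 7.18 and 7.37 in the cKO libraries. *Ccne1* had 4.51 and 3.24 in WT, 5.12 and 4.52 in the cKO libraries, the last just above the higher WT value. *Ccnb2* had 32.1 and 28.8 in WT, 26.7 and 20.05 in the cKO libraries, and so lay below WT on this scale.

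*Ccnd1*, *Ccnd3* and the inhibitors were lower relative to the proliferation markers in both cKO libraries. *Ccnd1* had 385 and 426 per 1000 in WT, 337 and 229 in the cKO libraries. *Ccnd3* had 159 and 176 in WT, 153 and 73.9 in the cKO libraries. *Ccnd2* had 33.3 and 29.1 in WT, 35.9 in cKO replicate 1 and 19.6 in cKO replicate 2, on either side of WT. *Cdkn1b* had 133 and 144 in WT, 88.4 and 33.5 in the cKO libraries. *Cdkn2c* had 20.5 and 22.8 in WT, 15.3 and 10.7 in the cKO libraries. The group means of *Ccnd1*, *Ccnd2*, *Ccnd3*, *Ccna2*, *Ccnb2* and *Cdkn2c* were thus higher in the cKO libraries in CPM but by less than the marker sum, as the plot of both scales shows.

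**Figure D3:**
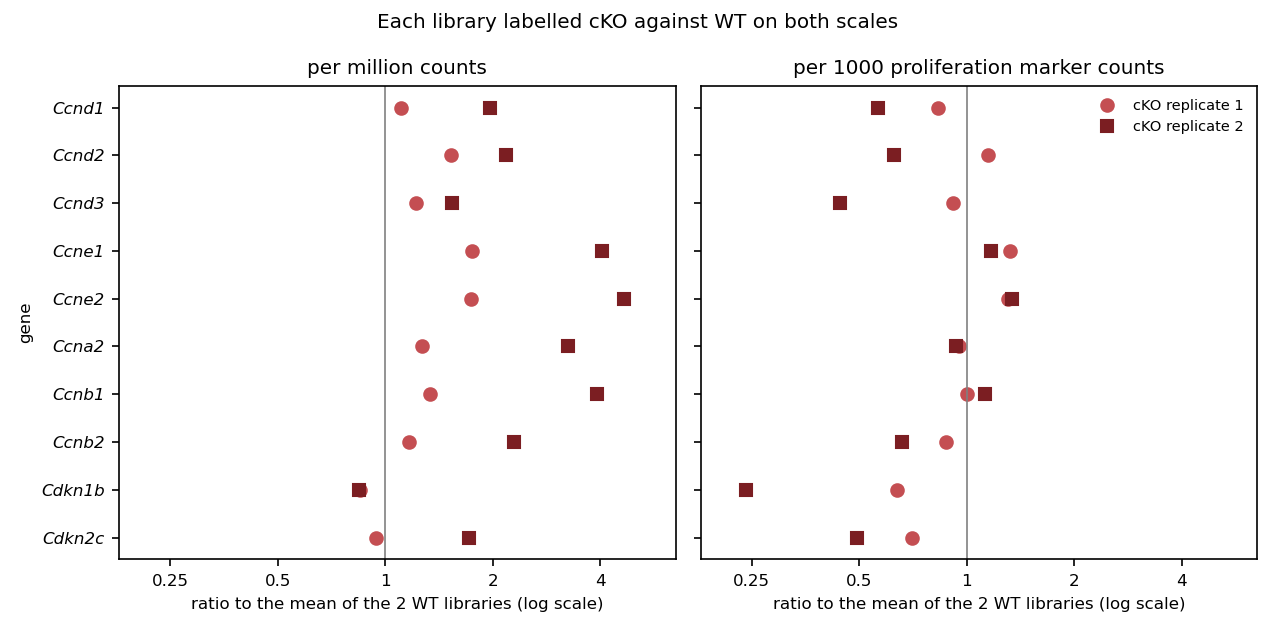
Ratio of each cKO library to the mean of the WT libraries for each gene, on a log axis, with replicate 1 as light circles and replicate 2 as dark squares, in CPM on the left and per 1000 proliferation marker counts on the right. On the right *Ccna2* and *Ccnb1* lie between 0.932 and 1.13 in both libraries, the E-type cyclins above 1 and *Cdkn1b* furthest below it.

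The partners and regulators of the 10 genes were read from 8 further lists with 76 genes in all, of which 71 were tested and none passed an FDR of 0.05 in the edgeR quasi-likelihood test. At an unadjusted p below 0.05, 41 were higher in the cKO libraries and 1 was lower, against 6.95% and 3.77% of all genes. Without cKO replicate 2 the numbers were 25 and 1, against 6.08% and 5.16% of all genes. Without WT replicate 2 they were 25 and 0, and 3.36% of all genes were then higher. In the lists that follow, higher and lower refer to this threshold. Both cKO libraries lay above both WT libraries for 51 of the 71, against 22.8% of all genes. They lay below them for 5 (*Ccng2*, *Cul1*, *Ambra1*, *E2f5* and *Mycl*), against 20.8% of all genes. The lists were chosen with earlier results of these data known, so these counts are a description.

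Of the 5 CDKs, 3 were higher (*Cdk1*, *Cdk4* and *Cdk6*) and none was lower, with a median log2 fold change of 0.44, and without cKO replicate 2 there were again 3, with a median of 0.30. *Cdk4*, the partner of the D-type cyclins, was the most abundant per kilobase, with 693 and 662 counts in WT, 889 and 1246 in the cKO libraries (log2 fold change 0.58, and 0.32 without cKO replicate 2). *Cdk1*, the mitotic CDK, differed most, with 166 and 199 counts in WT, 302 and 777 in the cKO libraries (1.49, and 0.66 without cKO replicate 2). *Cdk7*, whose product activates other CDKs, had 338 and 302 counts in WT, 362 and 327 in the cKO libraries.

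Of 7 other cyclins, 5 were tested, 2 were higher (*Ccnf* and *Ccng1*) and 1 was lower, with a median of 0.26. Without cKO replicate 2 none was higher and 1 was lower, with a median of 0.15. *Ccnf* (cyclin F) had 102 and 104 counts in WT, 140 and 407 in the cKO libraries (log2 fold change 1.33, and 0.38 without cKO replicate 2). *Ccng2*, a cyclin G gene known from resting cells, was the 1 pathway gene that was lower, with 660 and 657 counts in WT, 537 and 482 in the cKO libraries (log2 fold change −0.44). *Ccng1*, the most abundant per kilobase, had a log2 fold change of 0.34, and 0.15 without cKO replicate 2. *Ccna1* and *Ccnb3* were not tested, and *Ccnb3* had no count in any library.

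Of 6 other CDK inhibitors, 4 were tested and 3 were higher (*Cdkn1a*, *Cdkn2d* and *Cdkn3*), with a median of 1.06, and without cKO replicate 2 there were again 3, with a median of 0.87. *Cdkn1a* (p21), which binds cyclin and CDK complexes and is a known target of p53, had 81 and 111 counts in WT, 223 and 407 in the cKO libraries. That was a log2 fold change of 1.65 (SE 0.31, edgeR quasi-likelihood test, FDR 0.237), and 1.15 without cKO replicate 2. In the p21 and p27 family, both cKO libraries thus lay above both WT libraries for *Cdkn1a* and below them for *Cdkn1b*. *Cdkn1b* did not pass an unadjusted p of 0.05 in the edgeR quasi-likelihood test. The contrast between these genes was not tested. *Cdkn1c* had 10 and 21 counts in WT, 20 and 22 in the cKO libraries, and *Cdkn2a* and *Cdkn2b* had too few counts to be tested.

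Of 8 genes for CDK phosphorylation and binding partners, 7 were higher and none was lower, with a median of 1.01. The number higher was 4 and the median 0.39 without cKO replicate 2. *Cks1b*, whose product helps p27 reach its ubiquitin ligase, was the most abundant per kilobase, with 270 and 300 counts in WT, 410 and 875 in the cKO libraries (log2 fold change 1.10, and 0.46 without cKO replicate 2). *Cdc25c*, a phosphatase that activates Cdk1, had 34 and 20 counts in WT, 53 and 105 in the cKO libraries (1.46, and 0.90 without cKO replicate 2). *Mnat1* had a log2 fold change of −0.11.

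Of 12 genes for the turnover of cyclins and CDK inhibitors, 3 were higher (*Cdc20*, *Fbxo5* and *Ube2c*) and none was lower, with a median of 0.26. The number higher was 2 and the median 0.086 without cKO replicate 2. *Ube2c*, a ubiquitin-conjugating enzyme of the anaphase-promoting complex, had 324 and 303 counts in WT, 451 and 1085 in the cKO libraries (log2 fold change 1.22, and 0.46 without cKO replicate 2). *Ube2s*, the most abundant per kilobase, had a log2 fold change of 0.32. *Ambra1*, whose product directs D-type cyclins to degradation, had 1205 and 1262 counts in WT, 1205 and 1241 in the cKO libraries (−0.08).

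Of 15 genes for pocket proteins and E2F factors, which hold back and drive the transcription of S phase genes, 9 were higher and none was lower, with a median of 0.67. The number higher fell to 3 and the median to 0.12 without cKO replicate 2. *E2f7* had 49 and 52 counts in WT, 64 and 249 in the cKO libraries (log2 fold change 1.56, and 0.28 without cKO replicate 2). *E2f4*, the most abundant per kilobase, had a log2 fold change of 0.21, and *E2f5* had one of −0.40.

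Of 11 regulators of D-type cyclins and p27, 10 were tested, 2 were higher (*Foxm1* and *Mybl2*) and none was lower, with a median of 0.12. With cKO replicate 2 left out, 1 was higher, with a median of 0.078. *Mybl2*, which drives G2 and M phase genes, had 84 and 91 counts in WT, 166 and 458 in the cKO libraries (log2 fold change 1.76, and 0.86 without cKO replicate 2). *Mycl*, the MYC family member most abundant in these cells, had 5755 and 6278 counts in WT, 5902 and 4618 in the cKO libraries (−0.26). All 12 proliferation markers were higher, with a median of 1.30, and 9 were so without cKO replicate 2, with a median of 0.38. *Mcm2*, a subunit of the replicative helicase, had the largest log2 fold change of them, 1.68, and *Pcna*, the sliding clamp and the most abundant per kilobase, the smallest, 0.87. These were 0.78 and 0.37 without cKO replicate 2. The numbers higher in these lists also depended on the other libraries. Without WT replicate 1 and without WT replicate 2, when 3.95% and 3.36% of all genes were higher, they were 2 and 1 for the CDKs, 1 and 1 for the other cyclins, 2 and 2 for the other CDK inhibitors and 5 and 3 for CDK phosphorylation and binding partners. They were 2 and 2 for turnover, 6 and 4 for pocket proteins and E2F factors, 3 and 2 for the regulators and 12 and 10 for the proliferation markers, and no gene of the 8 lists was lower in either. With cKO replicate 1 left out, when 16.6% of all genes were higher and 15.9% lower, 7 turnover genes were higher, and 3 regulators were lower beside 3 that were higher. The plot of the lists shows the value of each gene beside the median of its list.

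**Figure D4:**
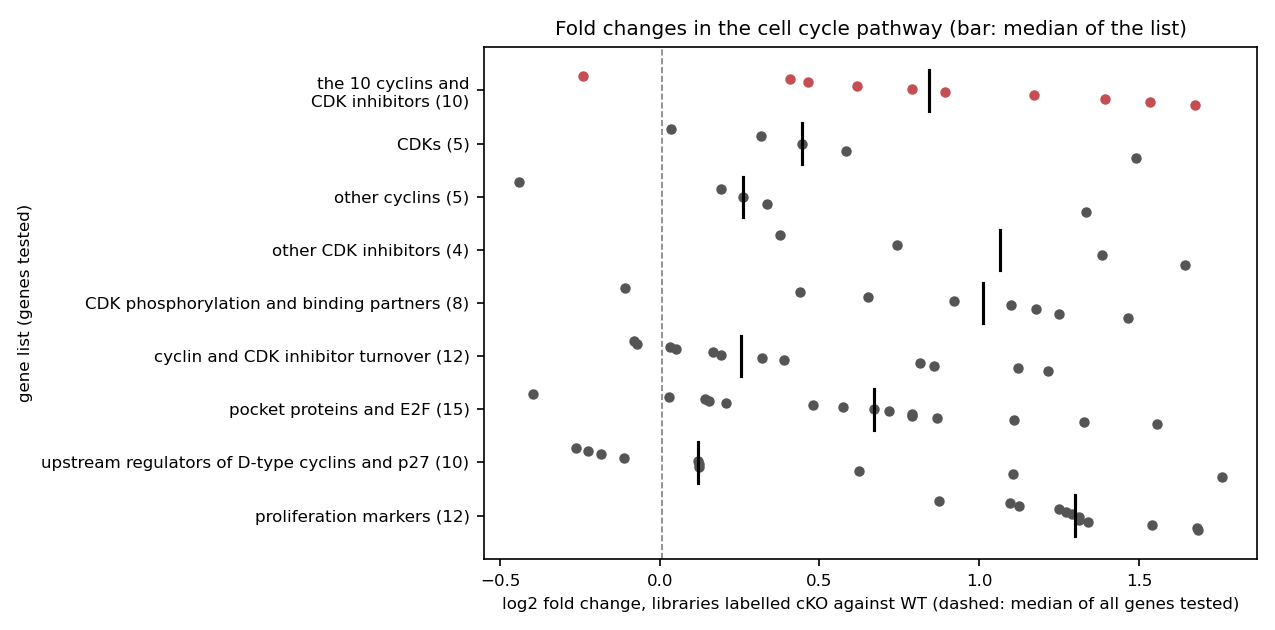
Log2 fold change, cKO libraries against WT, of each gene tested in the 10 cyclins and CDK inhibitors (red) and in the 8 pathway lists (grey), with a bar at the median of each list and a dashed line at 0.01, the median of all genes tested. All 12 proliferation markers lie right of the dashed line, whereas regulators of D-type cyclins and p27 have a median of 0.12.

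Genes with a profile like that of each member were found by the root mean square (RMS) difference in log2 CPM, centred on the mean of the 4 libraries, among 11387 genes with a mean of at least 20 counts. With 4 libraries this is a description. *Ccne2* was nearest to *Mcm2*, *Mybl2* and *Bub1* (RMS 0.039, 0.051 and 0.065). *Ccna2* was nearest to *Plk1*, *Ncaph* and *Diaph3* (0.030, 0.031 and 0.044), *Ccnb1* to *Fanci*, *Cenpf* and *Kif20b* (0.040, 0.043 and 0.047), and *Ccne1* to *Spag5*, *Stil* and *Gtse1* (0.058, 0.076 and 0.082). *Ccnb2* was nearest to *2610024D14Rik*, *Gas2l3* and *Gm54045* (0.032, 0.038 and 0.041).

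The D-type cyclins had other neighbours. *Ccnd1* was nearest to *Ints2*, *Fen1* and *Per2* (0.012, 0.021 and 0.027), *Ccnd2* to *Ms4a6d*, *Ifrd2* and *1810055G02Rik* (0.032, 0.045 and 0.049) and *Ccnd3* to *Osgin2*, *Erh* and *Adap1* (0.0072, 0.015 and 0.016). *Cdkn1b* was nearest to *Sdc3*, *9130023H24Rik* and *Akna* (0.011, 0.013 and 0.014) and *Cdkn2c* to *Bahcc1*, *Xist* and *Odf2l* (0.013, 0.015 and 0.027). How crowded a profile was differed widely. Within an RMS of 0.1 lay 1493 genes for *Cdkn1b* and 314 for *Ccnd3*, against 3 for *Ccne1*, 11 for *Ccne2* and 23 for *Ccnb1*.

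The single transcripts behind the gene sums were uneven. *Ccne1*, *Ccna2*, *Ccnb1*, *Ccnb2* and *Cdkn1b* each had a single transcript in the files. The main *Ccnd1* transcript, NM_007631.3, had 3318 and 3599 counts in WT, 4260 and 7349 in the cKO libraries, while NM_001379248.1 had 268, 475, 156 and 586 in the same order. Both counted transcripts of *Ccnd2* were higher in both cKO libraries, with 236, 198, 347 and 444 counts for XM_006505460.1 and 74, 80, 123 and 235 for NM_009829.3. The *Cdkn2c* transcripts parted, NM_007671.3 having 94, 100, 104 and 118 counts and NM_001301368.1 having 97, 118, 96 and 252, so that the high value of *Cdkn2c* in cKO replicate 2 lay mostly in the second.

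For *Ccnd3* and *Ccne2* the counts jumped between transcripts from library to library. *Ccnd3* NM_007632.2 had 942 and 1017 counts in WT, 1351 and 2201 in the cKO libraries, but NM_001081635.1 had 313 and 250 in WT, 0 in cKO replicate 1 and 108 in cKO replicate 2, and NM_001081636.1 was counted in cKO replicate 1 alone, at 201. *Ccne2* XM_006537575.5 had 15 and 14 counts in WT and 0 in both cKO libraries, and with counting error alone such a 0 is compatible with up to 3 counts. NM_001282943.1 of the same gene had 36, 0, 82 and 111. The sums over the gene are less open to how counts were shared among transcripts that overlap.

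Exons of *Ccnd1*, *Ccnd2*, *Ccnd3*, *Ccne2* and *Ccna2* overlap a gene on the opposite strand, and whether strand was used in counting is not given in the sources used here. The partner of *Ccne2*, *Ints8*, had 652 and 692 counts in WT, 699 and 807 in the cKO libraries. *LTO1*, the partner of *Ccnd1*, had 278, 317, 281 and 241, *Bysl*, that of *Ccnd3*, 169, 184, 245 and 342, and *Exosc9*, that of *Ccna2*, 472, 576, 616 and 592. Of the other 31-base words, 4.32% were shared for *Ccnd3*, and under 0.2% for each of the remaining 8 genes.

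The sorted cells carried the genes of their gate in every library. *Ptprc*, *Itgax*, *Kit*, *Cd24a* and *Flt3*, which encode CD45, CD11c, CD117, CD24 and the Flt3L receptor, summed to 4053 and 3887 CPM in WT, 3833 and 3631 in the cKO libraries. *Kit* had 6812 and 7181 counts in WT, 6014 and 5916 in the cKO libraries (log2 fold change −0.30, unadjusted p = 0.0362 in the edgeR quasi-likelihood test). *Xcr1*, the gene of a surface marker of mature cDC1s, had 10385 and 11385 counts in WT, 9540 and 10847 in the cKO libraries, and the labels do not say whether XCR1+ cells were gated out. Of 8 cDC1 genes, *Itgae* was higher and *Cadm1* lower at an unadjusted p below 0.05, against 6.95% and 3.77% of all genes. How many were lower depended on which library was left out. Leaving out each library in turn gave log2 fold changes of 0.53 to 0.87 for *Itgae* and −0.73 to −0.33 for *Cadm1*. The list gave sums of 10108 and 10073 CPM in WT, 9894 and 9025 in the cKO libraries. *Cd3e* and *Klrb1c*, genes of lineage markers that are gated out, had at most 24 and 46 counts in a library.

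Neutrophil genes were higher in the cKO libraries. The marker lists were chosen with earlier results of these data known, so their counts beside all genes are a description. Of 14 neutrophil genes, 12 were higher at an unadjusted p below 0.05, against 6.95% of all genes. An FDR of 0.05 was passed by 6 (*S100a8*, *S100a9*, *Ltf*, *Lcn2*, *Ngp* and *Cd177*), against 0.105% of all genes, so these are 6 of the 13 genes called in the whole table. The number at that FDR was 4 without WT replicate 1, when *Ngp* and *Cd177* no longer passed, and 0 without WT replicate 2, with 0.0929% and 0.00781% of all genes called and 12 and 11 of the 14 genes still higher at an unadjusted p below 0.05. It was 14 without cKO replicate 1, 2 of them lower, and 11 without cKO replicate 2, with 20.5% and 1.74% of all genes called. The list summed to 1515 and 1261 CPM in WT, 3255 in cKO replicate 1 and 2518 in cKO replicate 2. *S100a9*, the most abundant per kilobase, had 3131 and 3014 counts in WT, 8777 and 9196 in the cKO libraries, whereas *Mpo*, a gene of neutrophil precursors and most of the difference between those cKO sums, had 8464 and 6391 in WT, 13311 and 3014 in the cKO libraries. Of 6 basophil and mast cell genes, 5 were higher at an unadjusted p below 0.05, with sums of 24.9 and 24.02 CPM in WT, 78.5 and 40.8 in the cKO libraries and *Mcpt8* and *Prss34* as the most abundant. In WT *Prss34* was the higher of the pair, at 7.07 and 6.67 CPM per kilobase against 5.24 and 6.57 for *Mcpt8*. In the cKO libraries *Mcpt8* was the higher, at 24.8 and 16.5 against 24.6 and 9.81. The median log2 fold change of the 6 genes was 1.62 without cKO replicate 2. Without cKO replicate 1 only 2 of them were higher, with a median of 0.52 in place of 1.15 and 16.6% of all genes higher. The number was 3 without WT replicate 1 and 2 without WT replicate 2, when 3.95% and 3.36% of all genes were higher. No gene of either list was at 0 in all libraries. The part of these cells in the cyclin levels was not tested.

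The lists of other cell types had lower sums than the neutrophil list, and their counts at an unadjusted p below 0.05 are to be read against 6.95% of all genes higher and 3.77% lower. The T cell genes, dominated by *Cd8a*, which cDC1s also express, summed to 189.8 and 218 CPM in WT, 168 and 219 in the cKO libraries, with 1 of 4 (*Cd3g*) higher. *Cd8a* was lowest in cKO replicate 1. *Cd3g* had 13 and 13 counts in WT, 41 and 24 in the cKO libraries, and *Lck* had 22 and 34 in WT, 93 and 35 in the cKO libraries. *Cd3d* and *Cd3e* were also highest in cKO replicate 1, but *Cd4* was highest in cKO replicate 2. Plasmacytoid dendritic cell genes summed to 238 and 242 CPM in WT, 229.9 and 229.0 in the cKO libraries, with 3 of 8 (*Spib*, *Cox6a2* and *Runx2*) higher and 2 (*Bst2* and *Tcf4*) lower. Of these *Cox6a2* passed an FDR of 0.05, with 0 and 3 counts in WT, 183 and 168 in the cKO libraries. Macrophage genes summed to 37.0 and 40.8 in WT, 44.96 and 49.7 in the cKO libraries, with *Csf1r* of 6 genes higher and *C1qb* lower, and erythroid genes to 18.2 and 14.7 in WT, 19.4 and 19.7 in the cKO libraries, with 0 of 5 tested past an unadjusted p of 0.05 in the edgeR quasi-likelihood test. Without cKO replicate 2, 2 T cell genes were higher and 1 lower, 4 plasmacytoid genes higher and 2 lower, and 1 erythroid gene higher, against 6.08% of all genes higher and 5.16% lower. No T cell gene was higher without any 1 of the other 3 libraries. Plasmacytoid genes numbered 1 higher without WT replicate 1 and 2 higher without WT replicate 2, with none lower in either, and 3 higher and 2 lower without cKO replicate 1. No macrophage gene was higher without WT replicate 1, and none was lower without WT replicate 2 or cKO replicate 1. Of all genes, 3.95%, 3.36% and 16.6% were higher and 1.2%, 1.17% and 15.9% lower without WT replicate 1, WT replicate 2 and cKO replicate 1. The share of mitochondrial transcripts was 3.29% and 3.10% in WT, 3.03% in cKO replicate 1 and 4.86% in cKO replicate 2, so it was highest in the library with the highest cyclin levels. Its part in the result was not tested.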

How the data were processed

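CD24+ EPs were profiled by bulk RNA-seq from a CORALL RNA-seq V2 library kit, with 2 WT libraries and 2 labelled cKO. The deposited files hold whole-number read counts for 137259 transcripts, named by RefSeq accession and gene symbol and not normalized by the authors. The submitters' processing notes name fastp, STAR, Salmon, GATK and GRCm39, without versions. The labels give RNAiso Plus and the paper RNeasy for RNA extraction, and any use of molecular identifiers is not given in the sources used here. Where Salmon made the counts, a transcript's count is an estimate written as a whole number. In 2558 rows a gene has no accession, and nearly all of their counts (3.03% to 4.86% of a library) are mitochondrial.

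Counts were summed by symbol (40213 symbols, 19815 with a count), filtered with filterByExpr to 12393 genes, scaled by TMM and tested with the quasi-likelihood test of edgeR 4.0.16 in R 4.3.3, and p-values were adjusted by Benjamini-Hochberg over those genes (FDR). The common biological coefficient of variation was 15.2%. No libraries were duplicates (chi-square per degree of freedom at least 11.9 between any of them). Alternatives were DESeq2 1.42.0, limma 3.58.1 (voom), the edgeR likelihood ratio test, other scalings and filters, a replicate block and each library left out. The 10 genes, the pathway lists and the marker lists were chosen with earlier results of these data known, and so were the tests. Genes named beside the 10 are, from each pathway list, the most abundant per kilobase and those with the largest and smallest fold change, and the 3 nearest profiles of each member. *Mki67*, *Cdk6*, *Cdkn2d*, *Cdkn3*, *Cdc20*, *Fbxo5*, *Cul1*, *Foxm1*, *Cdkn2a*, *Cdkn2b*, *Ccna1*, *Ccnb3* and the marker genes were named after their values were seen. Transcript lengths and the search for shared words came from GENCODE and RefSeq tables of GRCm38, another build than that of the files, and no coordinates of the counts are given. One of the marker lists is not reported here. Counting limits cover counting error only.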

Additional observations from a re-analysis of the deposited data

How the results depend on the processing

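Under the 8 alternatives of scaling, filter, test or block that kept all 4 libraries and the sums over a gene, the log2 fold changes of the 10 genes kept their direction (80 of 80 values), and with a library left out 39 of 40 did. Single transcripts and the scale by proliferation markers, given at the end, gave others the opposite sign. The exception was *Cdkn2c*, at −0.10 without cKO replicate 2. Without a library the log2 fold change ran from 0.14 to 0.97 for *Ccnd1*, 0.61 to 1.12 for *Ccnd2*, 0.28 to 0.62 for *Ccnd3*, 0.80 to 2.02 for *Ccne1*, 0.79 to 2.22 for *Ccne2*, 0.33 to 1.70 for *Ccna2*, 0.41 to 1.97 for *Ccnb1*, 0.22 to 1.19 for *Ccnb2* and −0.10 to 0.77 for *Cdkn2c*. *Topbp1* ran from −0.61 without cKO replicate 2 to 0.11 without cKO replicate 1. A fit without a library has 1 residual degree of freedom and takes the lone library to vary like those of the other group.

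Members at an FDR of 0.05 numbered 0 in the edgeR quasi-likelihood test (8 at an unadjusted p below 0.05) and 2 in both the edgeR likelihood ratio test and the DESeq2 Wald test, where *Ccnd2* (0.89 in both) and *Ccne2* (1.67 in both) passed. Leaving out each library gave 0 to 9 such members, 5 to 10 members at an unadjusted p below 0.05, a median of 0.30 to 1.16 and 1 to 2625 genes of all tested. All genes at an FDR of 0.05 numbered 13, against 234 in the likelihood ratio test and 137 in the DESeq2 Wald test. Libraries of the same replicate number did not deviate together over all genes (correlation −0.0147), and the sources used here do not say that they were paired. A correlation over all genes cannot exclude a shared factor that acts on some genes only. With the replicate block 504 genes and 7 members passed, at 0.56 for *Ccnd1*, 0.88 for *Ccnd2*, 1.44 for *Ccne1*, 1.54 for *Ccne2*, 1.03 for *Ccna2*, 1.22 for *Ccnb1* and 0.72 for *Ccnb2*. The cause of these differences was not tested.

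With each transcript as its own feature, *Ccnd1* NM_001379248.1 turned to −0.063, *Ccnd3* NM_001081635.1 to −2.47 and XM_006523553.5 to −0.24, and *Ccne2* XM_006537575.5 to −6.91, a fitted value that depends on the prior count. Without division by length the shares of *Ccnd1*, *Ccnd2* and *Ccnd3* in the D-type cyclin counts were 67.2%, 5.19% and 27.7% in WT and 67.6%, 6.45% and 26.0% in the cKO libraries, against 56.3%, 2.57% and 41.1%, and 57.6%, 3.24% and 39.1%, per kilobase. Per 1000 proliferation marker counts, a scale chosen after seeing the data that lowers every gene that rose less than the markers by construction, the log2 ratio of the group means was −0.52 for *Ccnd1*, −0.17 for *Ccnd2*, −0.56 for *Ccnd3*, −0.088 for *Ccna2*, −0.38 for *Ccnb2* and −0.74 for *Cdkn2c*. With 31 to 53 counts in a WT library, the E-type cyclins are the members most limited by depth.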
